A study of Ictidomys tridecemlineatus with 31 samples.

Results

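Kidneys of 13-lined ground squirrels taken late in arousal from torpor (LAr) were compared with kidneys taken at entrance into torpor (Ent), 5 animals against 5 out of the 31 animals of the series. The members were chosen by their labelled state. They are LAr animals K109, K111, K112, K115, and K116 and Ent animals K155, K167, K2, K5, and K8, and another LAr animal, K113, is shown apart because the study set it aside as an outlier. The LAr animals were still actively rewarming from a bout of torpor, and the Ent animals were cooling into torpor after an interbout arousal (IBA). Both groups were in the hibernation season, and all animals carried an implanted temperature device. The body temperatures that the study gives for LAr lie inside the range it gives for Ent. The comparison therefore sets warming against cooling at overlapping temperatures. A body temperature for each animal is not among the labels. Each group had 3 females and 2 males. All LAr libraries belonged to experiment 2 (Nugen UniversalPlus kit), whereas K155 and K167 of Ent belonged to experiment 2 and K2, K5, and K8 to experiment 1 (TruSeq stranded kit).

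Hibernating ground squirrels alternate multiday torpor, in which blood flow, transcription, and translation run very low, with short arousals that restore perfusion and body heat. Immediate early genes are those that a cell transcribes within minutes of a stimulus without new protein synthesis. Many encode transcription factors of the AP-1, EGR, and NR4A families, and their transcripts are short-lived. Because RNA made in one phase can persist into the next when decay is slow in the cold, a kidney in entrance can carry transcripts of the preceding warm hours, and a kidney in arousal those that outlasted torpor.

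The deposited table gives each gene a regularized log (rlog) value, a count normalized for library size on the log2 scale, after removal of a batch effect by the authors. Over 12863 genes, the median of an animal lay between 9.74 and 9.84, and no counts or depths are given. Differences (LAr minus Ent) were estimated with limma in 29 animals of 6 states with terms for state, sex, and experiment, and q is the Benjamini-Hochberg adjusted p-value over all genes. Differentially expressed (DE) genes have q under 0.001, the study's threshold. Because the authors' correction made the 2 experiments equal in mean for every gene while LAr was sampled in experiment 2 alone, the fitted difference and the plain difference of the group means are not the same. For Fos the fitted difference was 2.83 and the difference of means 2.34, and the fitted one was the larger in size in all 29 DE genes, against 64.9% of all genes. Values of single animals below are as deposited, in rising order, and the Ent animals of experiment 2 are the ones prepared with the same kit as LAr. Folds are 2 to the power of the fitted difference, on the rlog scale, which pulls in the differences of genes with few reads. In a bulk kidney fragment, fewer cells of a type and less RNA per cell cannot be told apart.

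Few transcripts passed the test between the warming and the cooling kidney, and nearly all that did were higher on warming. There were 29 DE genes (0.225% of the 12863 tested), of which 28 were higher in LAr (0.218%) and 1, Ireb2, was lower (0.00777%). The increases reached at least 2-fold in 20 genes, and their median was 1.24 on the log2 scale, against 0.0073 over all genes. At q under 0.05 there were 98 genes (0.762%), with 65 higher (0.505%) and 33 lower (0.257%). None of the 33 fell by 2-fold, whereas 29 of the 65 rose by at least that much. The LAr and Ent animals did not overlap in 403 genes (3.13%), 198 higher and 205 lower, and in 28 of the 29 DE genes, the exception being the unnamed transcript G22124. At the threshold, q was 0.000946 for Nr4a1 just inside and 0.00104 for Cyr61 just outside.

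**Figure D1:**
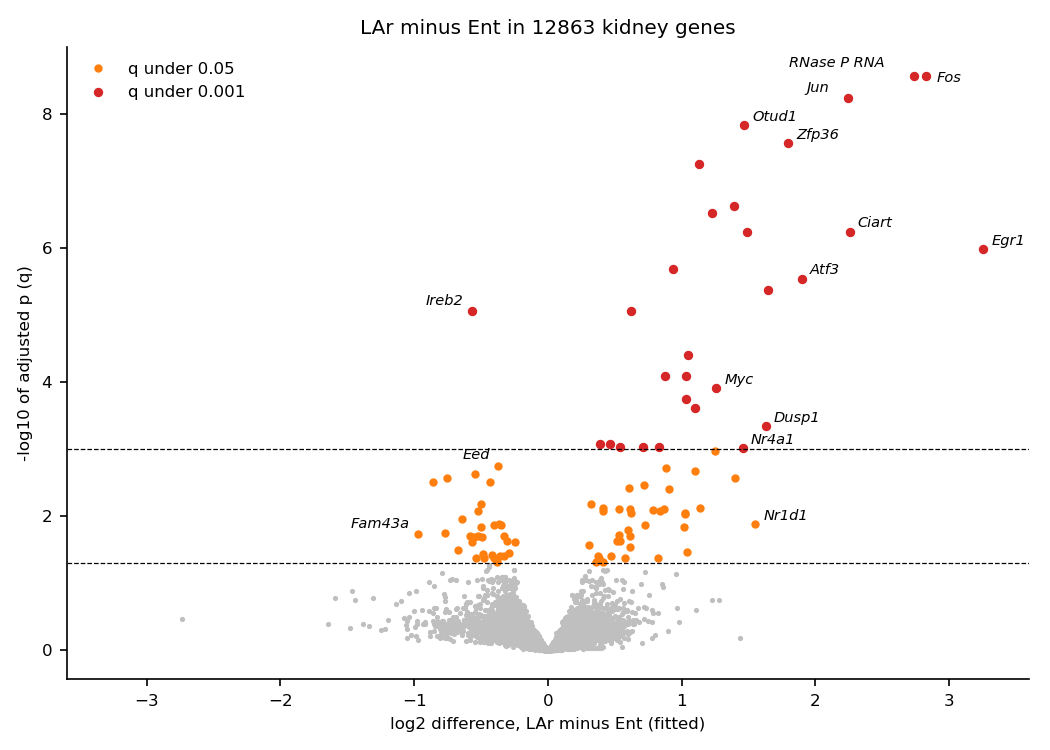
Fitted log2 difference between late arousal and entrance (x axis) against -log10 of the adjusted p-value (y axis) for 12863 genes, with dashed lines at q of 0.05 and 0.001. Of the 29 genes above the upper line, 28 lie on the right (higher in LAr) and Ireb2 alone on the left.

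Immediate early transcription factors were the list with the most calls. Of 19 measured members of a list of them, 10 rose at q under 0.05, 7 of these were DE, and none fell. Over all genes, 0.505% rose at q under 0.05 and 0.218% rose as DE genes. The list median was 0.72. Fos (gene5017), which pairs with Jun proteins to make the AP-1 factor, read 10.01, 10.18, 10.45, 10.70, and 10.74 in LAr and 7.63 and 7.86 (experiment 2) and 8.06, 8.35, and 8.49 (experiment 1) in Ent. The lowest LAr animal stood above the highest Ent animal by more than the whole range within either group. The difference was 2.83 (SE 0.198, q = 2.64e-09), a 7.09-fold increase. Jun (gene9313), its partner, read 12.30, 12.44, 12.52, 12.86, and 13.01 in LAr and 10.51 and 10.59 (experiment 2) and 10.46, 10.95, and 11.24 (experiment 1) in Ent, again without overlap (difference 2.25, SE 0.169, q = 5.67e-09). Egr1 (gene10450), a zinc finger factor induced by growth factor and stress signals, had the largest difference of any gene called. It read 11.51, 11.64, 11.94, 11.95, and 12.24 in LAr and 8.72 and 9.34 (experiment 2) and 8.68, 9.29, and 9.36 (experiment 1) in Ent, so that the Ent animals of both experiments covered similar ranges and every LAr animal lay above them. The increase was 9.55-fold (3.26, SE 0.336, q = 1.03e-06).

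Other members of this group rose by less. Atf3 (gene12452), a stress-induced partner of Jun proteins, read 9.71, 10.57, 10.61, 10.95, and 11.10 in LAr and 8.63 and 8.80 (experiment 2) and 8.96, 9.30, and 9.46 (experiment 1) in Ent (difference 1.90, SE 0.209, q = 2.82e-06). Its lowest LAr animal, K109, was only 0.25 above the highest Ent animal, K2. Junb ran from 11.13 to 11.55 in LAr and from 9.70 to 10.58 in Ent (difference 1.65, q = 4.24e-06). Myc (gene487), a driver of cell growth, ran from 8.76 to 9.44 and from 7.86 to 8.33 (difference 1.26, q = 0.000121). Nr4a1 (gene8450), an orphan nuclear receptor, was spread widely in LAr, 8.84, 9.19, 9.45, 9.82, and 10.20, against 8.33 and 8.33 (experiment 2) and 7.68, 8.57, and 8.61 (experiment 1) in Ent (difference 1.46, q = 0.000946). Its call rests near the threshold, and it was DE in 6 of 25 alternative settings, which changed the animals, the model, or the genes tested. Klf10 (1.10, q = 0.00213), Ier5 (0.87, q = 0.00784), and Ier2 (0.72, q = 0.00344) passed the looser threshold. A second row annotated IER2, under an Ensembl identifier, was DE with 1.40 (q = 2.29e-07). The 2 rows may share reads, so the split between them is uncertain. Not every member passed, with Fosl2 (0.10, q = 0.873), Ier3 (-0.05, q = 0.933), and Srf (0.11, q = 0.589) among the 9 that did not.

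**Figure D2:**
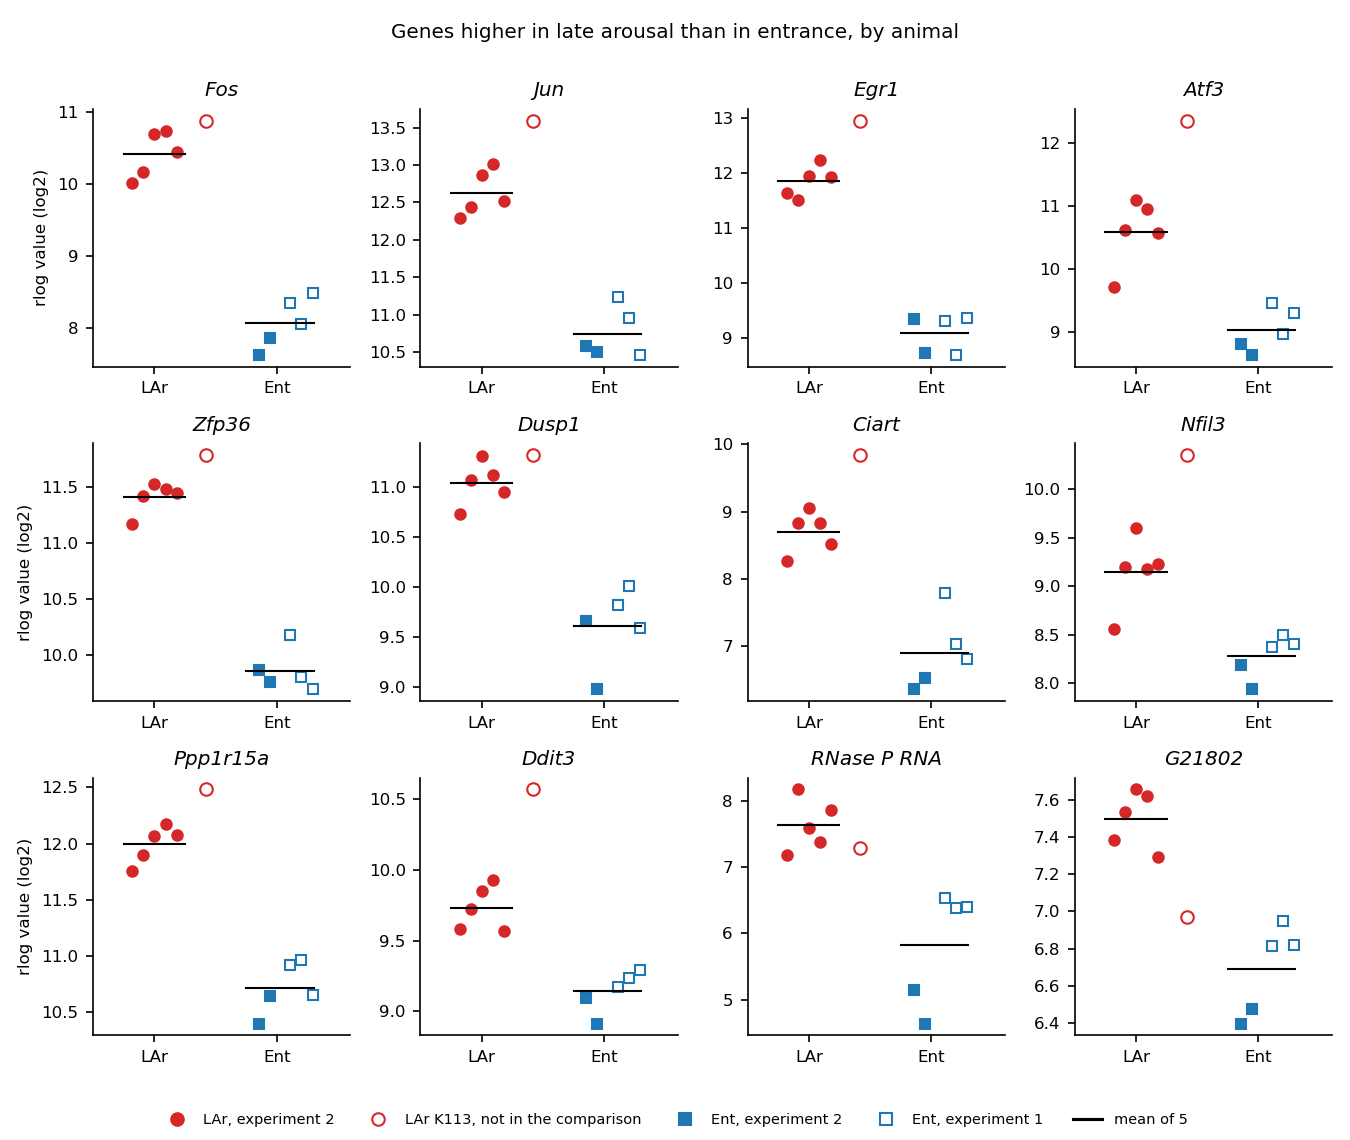
Deposited rlog value (log2, y axis) of 12 genes in each animal, with LAr as filled circles, K113 as an open circle, Ent of experiment 2 as filled squares, Ent of experiment 1 as open squares, and a bar at the mean of 5 animals. In each of the 12 panels the 5 LAr animals lie above all Ent animals, and K113 lies above the LAr range in 10 panels, inside it for RNase P RNA, and below it for G21802.

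Genes known to limit early responses also rose. Zfp36 (gene18838), which binds AU-rich elements and hastens decay of early transcripts, read 11.17, 11.43, 11.45, 11.49, and 11.53 in LAr and 9.75 and 9.86 (experiment 2) and 9.69, 9.80, and 10.17 (experiment 1) in Ent. The LAr values were tightly grouped but for K109, and the increase was 3.47-fold (difference 1.80, SE 0.149, q = 2.66e-08). Btg2 (gene13276), an antiproliferative protein that recruits the deadenylase complex, read 10.64, 10.84, 10.95, 11.14, and 11.30 in LAr and 9.73 and 9.79 (experiment 2) and 9.84, 9.88, and 10.04 (experiment 1) in Ent (difference 1.23, q = 2.99e-07). Tob1, its relative, was higher at the looser threshold (0.61, q = 0.00372). These were 3 of 19 measured mRNA decay regulators, against 0.505% of all genes higher at q under 0.05, and the list median was 0.07. The family members Zfp36l1 (0.16, q = 0.673), Zfp36l2 (0.02, q = 0.978), and Btg1 (-0.20, q = 0.627) did not pass. Dusp1 (gene16656), a phosphatase that switches off MAP kinases, read 10.73, 10.95, 11.08, 11.13, and 11.31 in LAr and 8.98 and 9.66 (experiment 2) and 9.60, 9.82, and 10.01 (experiment 1) in Ent (difference 1.63, SE 0.248, q = 0.000448). It was the only 1 of 13 measured MAP kinase inhibitors to pass, against the same 0.505% of all genes, with a list median of 0.27. The DE call of Dusp1 was lost without any 1 of 8 of the 10 animals, with the q staying under 0.05. Otud1 (gene9120), a deubiquitinase, had the fourth lowest q of all genes (difference 1.47, SE 0.117, q = 1.44e-08). It read 9.78, 9.80, 9.81, 9.86, and 10.17 in LAr and 8.19 and 8.61 (experiment 2) and 8.67, 8.85, and 8.99 (experiment 1) in Ent.

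Of the integrated stress response, which slows translation by phosphorylation of eIF2 alpha, 2 of 19 measured genes rose. The share over all genes was 0.505% at q under 0.05, and the list median was 0.08. Ppp1r15a (GADD34, gene19077), the phosphatase subunit that reverses that phosphorylation, read 11.76, 11.90, 12.07, 12.07, and 12.17 in LAr and 10.40 and 10.65 (experiment 2) and 10.66, 10.92, and 10.96 (experiment 1) in Ent. Its 2.81-fold increase (difference 1.49, SE 0.149, q = 5.6e-07) separated the groups by more than the range of either. Ddit3 (CHOP, gene18138), a factor of the same pathway, read 9.57, 9.58, 9.72, 9.85, and 9.93 in LAr and 8.91 and 9.09 (experiment 2) and 9.17, 9.23, and 9.30 (experiment 1) in Ent (difference 0.71, q = 0.000932). Ddit3 was DE in 7 of 25 settings. Atf4, which stands upstream of both, differed by 0.41 (q = 0.0968), and its metabolic target Asns by 0.05 (q = 0.778). The constitutive subunit Ppp1r15b differed by 0.35 (q = 0.214).

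Among 22 measured circadian clock genes, 3 rose, against 0.505% of all genes at q under 0.05. All 3 are known as transcriptional repressors, and the list median was 0.16. Ciart (gene14012), a repressor in the clock feedback loop, had the fourth largest increase among the DE genes. It read 8.27, 8.53, 8.84, 8.84, and 9.05 in LAr and 6.36 and 6.52 (experiment 2) and 6.81, 7.03, and 7.79 (experiment 1) in Ent (difference 2.26, SE 0.224, q = 5.6e-07). The Ent animals of experiment 2 were the lowest, and K2 of experiment 1 came within 0.48 of the lowest LAr animal. Nfil3 (gene22874), a repressor of D-box genes, read 8.56, 9.18, 9.19, 9.23, and 9.60 in LAr and 7.94 and 8.19 (experiment 2) and 8.38, 8.41, and 8.50 (experiment 1) in Ent, with only 0.06 between the nearest animals of the groups (difference 1.10, q = 0.000242). Nfil3 was DE in 15 of 25 settings, and not without K111, K116, or K167. Nr1d1 (REV-ERB alpha, gene5497), the haem-binding repressor of Arntl, read 11.33, 11.36, 11.50, 11.63, and 12.01 in LAr and 9.76 and 10.58 (experiment 2) and 9.77, 10.56, and 11.26 (experiment 1) in Ent (difference 1.55, SE 0.319, q = 0.0131), a call that was lost without K155 (q = 0.0768). The Nr1d1 call was also lost with no term for experiment (q = 0.167). In LAr and Ent alone it was lost with that term (q = 0.214) and without it (q = 0.102). The core genes did not pass, with Per1 at 0.28 (q = 0.738), Per2 at 0.23 (q = 0.798), Arntl at -0.29 (q = 0.656), and Clock at -0.21 (q = 0.613). Neither did Nr1d2 (-0.17, q = 0.71) or Dbp (0.16, q = 0.791).

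The lists of inflammatory early genes, of growth factors and receptors, and of SRF and YAP targets held only 1 or 2 genes that passed. The share to set beside the counts of these lists is the 0.505% of all genes higher at q under 0.05. Socs3 (gene15328), the feedback inhibitor of cytokine receptors, rose by 1.03 (q = 0.00895) and was the only 1 of 12 measured inflammatory early genes to pass. Its LAr animals ran from 8.58 to 9.31 and its Ent animals from 7.73 to 8.51. Hbegf (gene10480), a ligand of the EGF receptor made by stressed tubules, rose by 1.03 (q = 0.00929), 1 of 25 in its list, but not without K167 (q = 0.0925). Hbegf also did not pass in LAr and Ent alone, with a term for experiment (q = 0.278) or without it (q = 0.0944). Its receptor Egfr differed by 0.29 (q = 0.571). Of 18 targets of SRF and YAP, Cyr61, a matrix signal, rose by 1.25 (q = 0.00104) and Amotl2, an inhibitor of YAP, by 0.62 (q = 0.0284). The LAr and Ent ranges of Amotl2 overlapped, since K2 read 12.61, and its call was lost without any 1 of 7 animals (K111, K112, K115, K116, K155, K167, or K8, with q from 0.0522 to 0.135). It passed in 14 of 25 settings.

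Other DE genes have less familiar roles. Csrnp1, a nuclear protein of early responses, rose by 1.03 (q = 7.97e-05), and Frat2, a regulator of GSK3 in Wnt signaling, by 0.87 (q = 7.97e-05). Mocs3, which activates sulfur carriers for molybdenum cofactor and tRNA thiolation, rose by 0.62 (q = 8.69e-06). Kti12 (0.39, q = 0.000829) and the pseudouridine synthase family member Rpusd2 (0.47, q = 0.000838) had the smallest increases of the DE set. Their animals varied little, with SDs of 0.066 and 0.056 over the 5 LAr animals and 0.103 and 0.077 over the 5 Ent animals. Kti12 was DE in 9 and Rpusd2 in 7 of 25 settings. The linker histone gene HIST1H1E rose by 1.03 (q = 0.000179), and the transcript containing the host gene of miR-22 (MIR22HG_containing) by 0.83 (q = 0.000932). LOC101968910, a long noncoding RNA in RefSeq, rose by 0.93 (q = 2.03e-06).

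A second set of increases involved noncoding and unnamed transcripts, and these differed from the first in where the early arousing (EAr) animals stood. The RNA subunit of RNase P (RNaseP_nuc, ENSSTOG00000018579), which processes tRNA precursors, had the third largest difference of all DE genes. It read 7.18, 7.38, 7.59, 7.86, and 8.17 in LAr and 4.64 and 5.15 (experiment 2) and 6.39, 6.40, and 6.54 (experiment 1) in Ent (difference 2.74, SE 0.195, q = 2.64e-09). The 2 experiments were far apart within Ent, and the difference of the group means was only 1.81. This RNA is not ordinarily polyadenylated, and the libraries were selected for poly(A). G21802, an unnamed transcript, read 7.29, 7.38, 7.54, 7.62, and 7.66 in LAr and 6.40 and 6.48 (experiment 2) and 6.82, 6.82, and 6.95 (experiment 1) in Ent (difference 1.13, q = 5.5e-08). G22124 (1.05, q = 3.87e-05) and G858 (0.54, q = 0.000932) were the other DE genes of this kind, and U6, a spliceosomal RNA, passed the looser threshold (1.04, q = 0.0338). In 4 DE genes (RNase P RNA, G21802, G22124, and HIST1H1E), every Ent animal read under 7, the value the authors required in most animals of at least 1 group before the batch correction. For G22124 every LAr animal was under it as well.

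Levels fitted for each state, with the effects of sex and experiment held equal, placed these differences within the torpor-arousal cycle. Fos stood at 7.69 in EAr, 10.42 in LAr, 8.33 in IBA, and 7.59 in Ent. Egr1 followed the same course with 8.66, 11.87, 9.58, and 8.61. Ciart read 6.54, 8.72, 6.13, and 6.47, with IBA below Ent. In these genes EAr lay near Ent and LAr stood highest in the cycle. Summer active (SA) kidneys stood at 9.23 for Fos and 10.24 for Egr1, and spring dark (SpD) kidneys at 8.30 and 9.64. All of these were above Ent, whereas Ciart was below it, at 6.16 in SA and 6.30 in SpD. Of the 28 higher DE genes, 24 had EAr closer to Ent than to LAr, and LAr was the highest of the 6 states in 24. Ent was the lowest of the 6 states in 12 of them, and SA was nearer to LAr than to Ent in 8. These genes were chosen for LAr above Ent, which favors a high rank of LAr and a low rank of Ent. The median position of EAr was 5% of the way from Ent to LAr, and that of IBA was 24%. RNase P RNA, by contrast, stood at 7.73 in EAr, 7.62 in LAr, 4.63 in IBA, and 4.88 in Ent. G22124 was at 7.04, 6.27, 5.23, and 5.22 in that order. The 4 DE genes with EAr nearer to LAr were RNase P RNA, G21802, G22124, and G858, and in each of them EAr exceeded LAr. At q under 0.05, EAr was nearer to LAr in 14 of the 65 higher genes, and 13 of the 14 were noncoding or unnamed, Ces4a being the exception. Of the other 51, 4 were, MIR22HG_containing among them. Like LAr, EAr was sampled with the Nugen kit alone, so both carry the same fitted term for experiment. The EAr animals are in the same fit, and these positions were not tested.

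**Figure D3:**
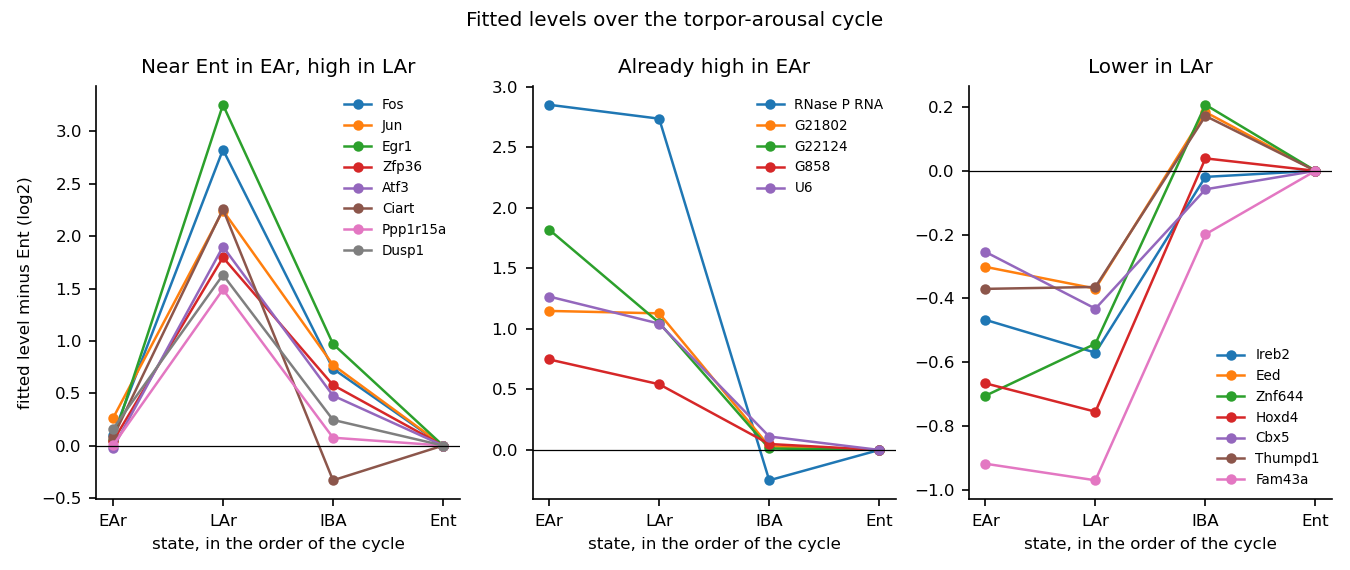
Fitted level minus the fitted Ent level (log2, y axis) in the 4 hibernation states in cycle order (x axis) for genes near Ent in EAr (left), genes already high in EAr (middle), and genes lower in LAr (right). In the left panel LAr stands farthest from 0 in every gene. In the middle panel EAr and LAr are both above 0. In the right panel EAr and LAr are both below 0 while IBA lies between -0.20 and 0.21.

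Decreases were smaller. Ireb2 (gene1109), which encodes the iron regulatory protein IRP2, an RNA-binding sensor that raises iron uptake when iron is short, read 10.50, 10.60, 10.61, 10.62, and 10.72 in LAr and 11.14 and 11.19 (experiment 2) and 10.82, 10.89, and 11.16 (experiment 1) in Ent. All LAr animals were below all Ent animals, and the difference was -0.57 (SE 0.067, q = 8.69e-06). The Ireb2 call was lost in 4 of 25 settings, among them experiment 2 alone and a fit with no term for experiment. Below it came genes that passed only the looser threshold. Eed (gene6841), a subunit of the polycomb repressive complex PRC2, read 8.53, 8.57, 8.58, 8.67, and 8.68 in LAr and 8.94 and 9.03 (experiment 2) and 8.75, 8.76, and 8.79 (experiment 1) in Ent (difference -0.37, q = 0.00175). Cbx5 (gene8518), which encodes the heterochromatin protein HP1 alpha, read 11.68, 11.69, 11.72, 11.76, and 11.77 in LAr and 12.13 and 12.15 (experiment 2) and 11.97, 11.97, and 12.07 (experiment 1) in Ent, with an SD of 0.040 in LAr and 0.086 in Ent (difference -0.43, q = 0.00312). The homeobox genes Hoxd4 (-0.76, q = 0.00269) and Hoxd3 (-0.50, q = 0.0145) were both lower, and in both the LAr and Ent ranges overlapped. The overlap was with Ent animals of experiment 1 only, since those of experiment 2 lay above all LAr animals. Fam43a had the largest decrease of the 33, with 8.97, 9.26, 9.36, 9.38, and 9.39 in LAr and 9.87 and 10.28 (experiment 2) and 9.60, 9.82, and 10.09 (experiment 1) in Ent (difference -0.97, SE 0.208, q = 0.0185). Znf644 (-0.54, q = 0.00235), Thumpd1 (-0.36, q = 0.0131), and LOC101958749 (-0.77, q = 0.0178) were also lower. Fam43a passed in 15 of 25 settings, and not without K111 (q = 0.0645) or K155 (q = 0.0599). LOC101958749 passed in 15 of 24, and not without K109, K116, K155, or K167 (q from 0.0556 to 0.101). With no term for experiment, none of the 7 genes Eed, Cbx5, Hoxd4, Fam43a, Znf644, Thumpd1, and LOC101958749 passed (q from 0.0725 to 0.44). Ddx6, an RNA helicase of processing bodies (-0.38, q = 0.0482), and Rictor, the defining subunit of the kinase complex mTORC2 (-0.50, q = 0.02), were lower too. The LAr and Ent ranges of Rictor overlapped. In experiment 2 alone neither passed (q = 0.156 for Ddx6 and 0.179 for Rictor), and the other settings were not run for them.

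Fitted levels of the lower genes were already low in EAr. Ireb2 stood at 10.71 in EAr, 10.61 in LAr, 11.16 in IBA, and 11.18 in Ent, and Fam43a at 9.32, 9.27, 10.04, and 10.24. Of the 33 lower genes, 25 had EAr nearer to LAr than to Ent, against 14 of the 65 higher genes, and LAr was the lowest of the 6 states in 29. The choice of genes for LAr below Ent favors that rank of LAr. The median position of EAr was 72.8% of the way from Ent to LAr. In 25 of the 33, IBA lay above Ent. These positions rest in part on the fitted term for experiment, which EAr and LAr share because both were sampled with the Nugen kit alone. The part of that term was not tested. As deposited, the mean of the 33 genes was 9.10 to 9.19 in EAr animals and 8.93 to 9.06 in the LAr animals of the fit. It was 9.47 and 9.49 in the Ent animals of the Nugen kit and 9.17 to 9.37 in those of the TruSeq kit.

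**Figure D4:**
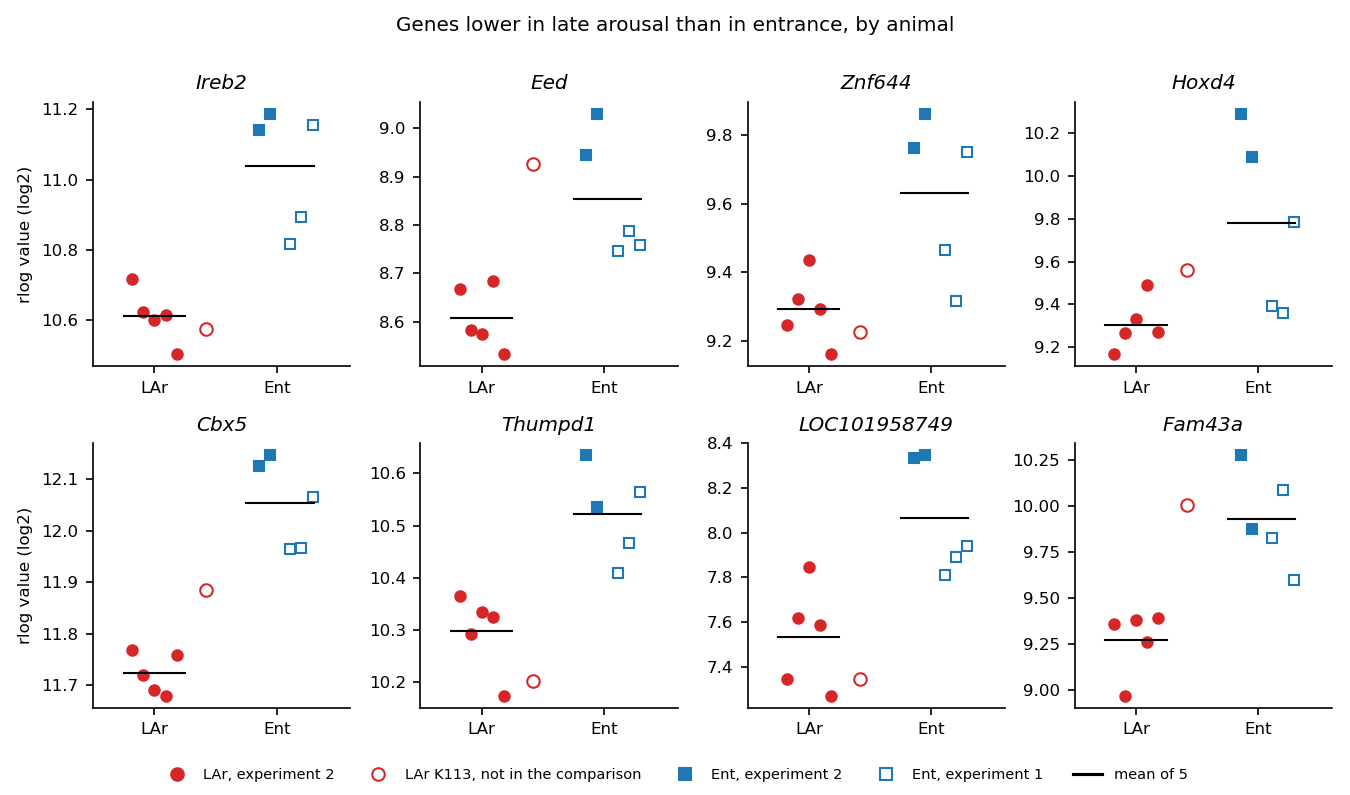
Deposited rlog value (log2, y axis) of 8 genes lower in LAr in each animal, with symbols as in the plot of the higher genes. The 5 LAr animals lie below all Ent animals for Ireb2, Eed, Cbx5, Thumpd1, and Fam43a and overlap with them for Znf644, Hoxd4, and LOC101958749, and K113 lies within the Ent range for Eed, Hoxd4, and Fam43a.

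Most lists had no gene that passed. In all, 613 of 719 symbols in 26 lists were measured, 23 list genes passed q under 0.05, and every one of these was higher in LAr. The other 18 lists had none. Since 0.762% of all genes passed that threshold, lists of 10 to 41 genes without a call are near the background, and their counts are no result about the lists. None of 30 measured cytosolic chaperones passed (list median 0.04). Among them Hspa1b, an inducible HSP70, ran from 9.91 to 10.58 in LAr and from 9.26 to 10.23 in Ent (difference 0.19, q = 0.849), and reads of Hspa1a and Hspa1b may be shared. None of 27 unfolded protein response genes (0.01), 20 cold-inducible RNA-binding proteins, splicing factors, and CLK kinases (0.06), 21 hypoxia response genes (-0.01), or 27 glucocorticoid and fasting response genes (-0.08) passed. The cold-inducible proteins Cirbp (0.15, q = 0.614) and Rbm3 (0.22, q = 0.678) did not pass either. Metabolism and protein synthesis had none of 30 fatty acid oxidation genes (0.12), none of 27 genes of the respiratory chain and ATP synthase (-0.05), and none of 39 cytosolic ribosomal proteins, which spanned -0.12 (Rpl3) to 0.10 (Rpl11). The remaining lists without a call were ribosome biogenesis (36 genes), Golgi and ER transport (41), cilium assembly (41), cell division (18), proteasome (30), antiapoptotic (10), proapoptotic (13), tubule injury (16), antioxidant (22), and cholesterol synthesis (18). A q over the threshold does not show equal levels, and the median residual SD of 0.155 sets what 5 animals against 5 can resolve.

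**Figure D5:**
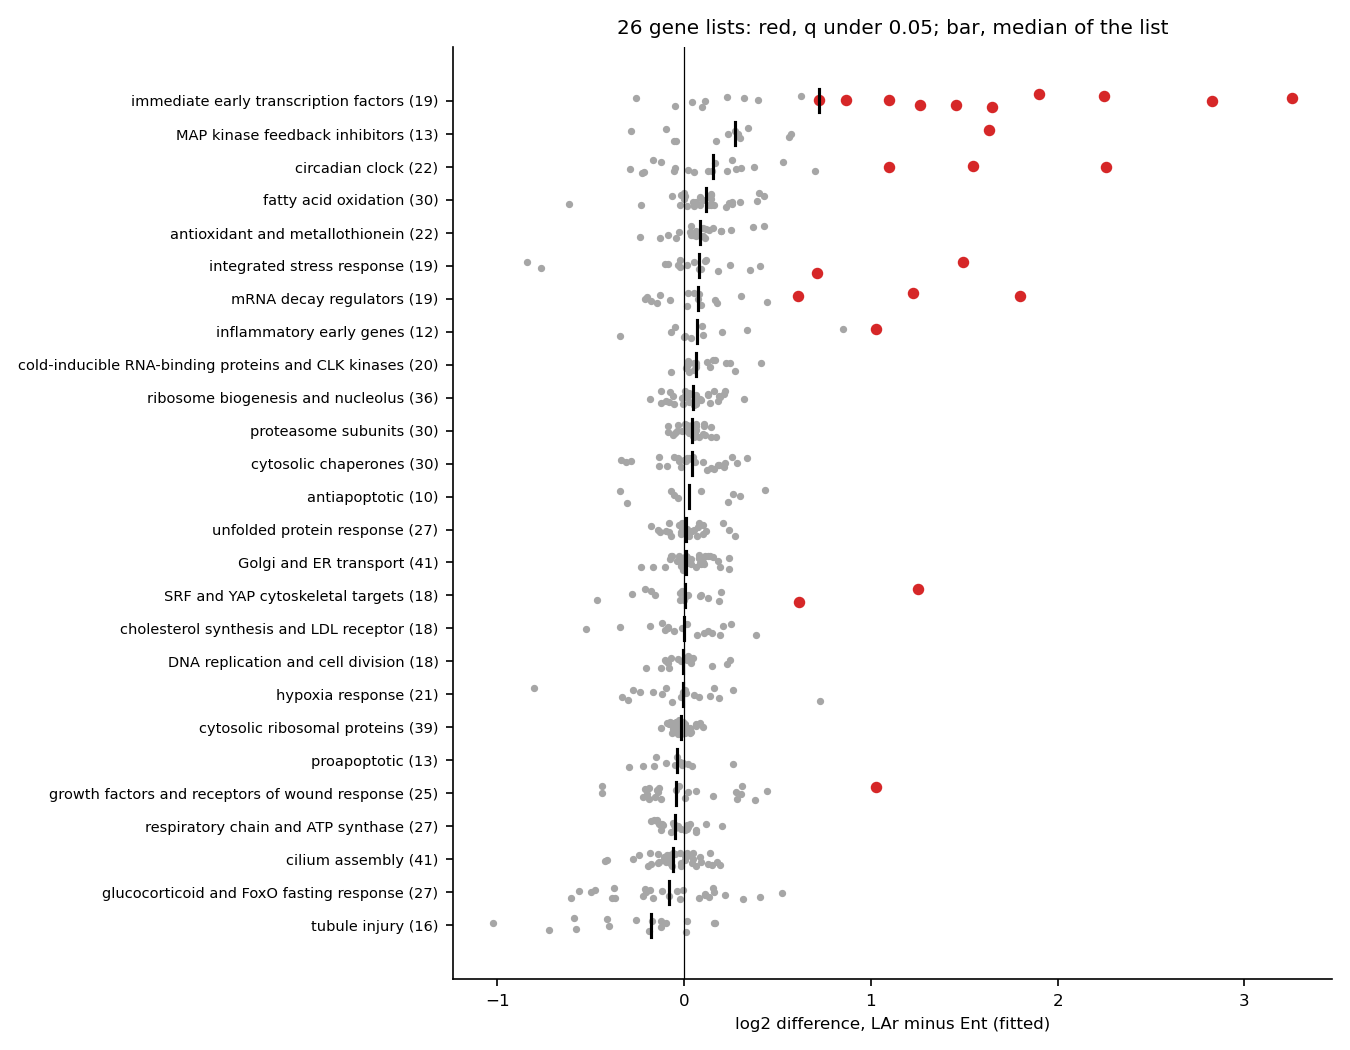
Fitted log2 difference between LAr and Ent (x axis) of every measured gene in 26 lists, with the number of genes in parentheses, red points for q under 0.05, and a bar at the list median. Red points occur in 8 lists and all lie to the right of 0, and the immediate early transcription factors have the highest median (0.72).

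No kidney injury marker passed the test. Havcr1 (KIM-1), the classic marker of tubule damage, read 6.76, 6.82, 7.08, 7.42, and 7.61 in LAr and 6.89 and 8.14 (experiment 2) and 6.22, 6.48, and 8.04 (experiment 1) in Ent (difference 0.01, SE 0.415, q = 0.993). Lcn2 (NGAL) ranged widely in LAr, 8.63, 9.15, 9.39, 10.20, and 11.89, and less in Ent, 10.23 and 11.03 (experiment 2) and 10.29, 11.11, and 11.32 (experiment 1) (difference -1.02, SE 0.685, q = 0.58). Spp1, which encodes osteopontin (-0.59, q = 0.543), Clu, the chaperone clusterin (-0.58, q = 0.554), and the adhesion molecule Vcam1 (0.16, q = 0.884) did not pass, and the groups overlapped in all 5. The list of 16 had a median of -0.18. Since 0.762% of all genes passed q under 0.05, no call among 16 genes is near the background and is no result about injury.

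K113, labelled LAr, stood apart. For the 28 higher DE genes it lay above all Ent animals in 28, above the range of the other LAr animals in 21, within it in 4, and below it in 3. Nr4a1 read 12.18 in K113 and at most 10.20 in the others, Csrnp1 11.51 and at most 10.33, Btg2 12.35 and at most 11.30, and Atf3 12.35 and at most 11.10. The 3 genes below the LAr range were G21802 (6.97), LOC101968910 (7.82), and HIST1H1E (6.85). Of the 33 lower genes, K113 was below all Ent animals in only 11. It also differed in tissue markers, with proximal tubule markers at a mean of 13.37 (14.17 to 14.56 in the other LAr animals) and inner medulla markers at 13.51 (10.93 to 11.17). With K113 added to the fit there were 28 DE genes, 25 of them shared with the 29, and 26 were higher.

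Within experiment 2, where 5 LAr animals met 2 Ent animals prepared with the same kit, all 28 higher DE genes had the same sign and no overlap, against 21.5% of all genes without overlap. They were chosen in a fit that includes these animals. All but G22124 were already without overlap over the 5 Ent animals. Their lack of overlap here was therefore fixed in advance, and their sign nearly so. The median difference of the 28 genes in experiment 2 was 1.13, and 13 of them were DE. Fos differed by 2.68, Egr1 by 2.82, RNase P RNA by 2.72, and Ciart by 2.28. The 33 lower genes also kept their sign, with a median of -0.44 in place of -0.50, and none was DE. They too were chosen in a fit that includes these animals. All 33 were without overlap in experiment 2, so their sign there was nearly fixed in advance. The contrast did not differ between females and males at q under 0.05 for any gene in limma (lowest q 0.999, with 239 genes, 1.86%, at an unadjusted p under 0.05). All 28 higher DE genes had a difference above 0 in each sex, which the lack of overlap in all but G22124 made nearly certain.

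The tissue was kidney by its markers, and proximal tubule genes averaged 14.17 to 14.56 in LAr and 13.77 to 14.66 in Ent. None of the markers of 12 measured cell types or zones passed q under 0.05, which is near the share of 0.762% over all genes. The groups overlapped in the mean of every marker list, but 7 of 8 fibroblast markers had a fitted difference below 0 (list mean 8.44 to 9.48 in LAr against 8.79 to 9.69 in Ent), as had 4 of 5 inner medulla markers (10.93 to 11.17 against 10.94 to 12.13), 6 of 7 endothelial markers, and 4 of 5 macrophage markers. The other way, 5 of 5 podocyte markers (list median 0.49), 10 of 11 proximal tubule markers (0.27), and 3 of 3 distal convoluted tubule markers (0.28) had a difference above 0. The part of these shifts in the results was not tested beyond the covariates given next. With the mean of the inner medulla markers as a covariate there were 24 DE genes, and with that of the fibroblast markers 25, of which 23 and 24 were among the 29. No listed marker of neutrophils, adrenal gland, or adipocytes was matched by symbol among the measured genes.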

How the data were processed

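Kidney RNA was measured in 31 squirrels by poly(A)-selected, strand-specific RNA-seq. According to the study's methods, the authors used cutadapt for trimming, HISAT2 to take out mitochondrial reads, and Salmon for quantification on the HiC_Itri_2 annotation, and made gene-level rlog values with DESeq2. Tool versions are not given in the sources used here. The deposited values are on the log2 scale, with the effect of experiment removed by the authors with limma, and rlog pulls in differences of genes with few reads. Read counts are not in the table, so counting error and depth are unknown, and the study's test on counts could not be repeated.

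The model (limma 3.58.1, R 4.3.3) covered 29 animals, leaving out K113 and K137, with state, sex, and experiment as terms, an intensity trend, and Benjamini-Hochberg adjustment. The model was tested on simulated data. Fitted levels are for experiment 2 and an equal mix of the sexes. Plots used matplotlib 3.10.9 (Python 3.11.15).

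The genes, lists, and comparison were chosen with earlier results of these data known, and lists and markers were written from general knowledge. Genes named by rule are the 15 largest increases and decreases among DE genes with a symbol and no overlap, the 10 lowest q values, up to 6 members of each list at q under 0.05, the injury genes, and Hspa1b. The other DE genes, the lower genes at q under 0.05, and other list members without a call were named after their values were seen. Of the 98 genes at q under 0.05, 74 matched a RefSeq symbol. That annotation is of another assembly (mIctTri1.hap1), and positions and sequences are left out. Alternatives changed the animals (all 31, K113 added, K130 or each LAr or Ent animal left out, LAr and Ent alone, experiment 2 alone), the model (without experiment, sex, or trend, with a robust prior variance or animal weights), the genes (mean of 8 or more), the centering, and the threshold. Covariates for inner medulla and fibroblast markers were chosen after seeing the data.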

Additional observations from a re-analysis of the deposited data

Results flagged for a closer look

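In groups of 5 animals, a value was singled out when its gap to the nearest animal exceeded Dixon's critical share of the group's range (0.71). Of 96 groups examined, the LAr and Ent animals of 48 genes, 2 were singled out, and chance gives about 1 in 20. Otud1 read 10.17 in LAr animal K115 and 9.78 to 9.86 in the other LAr animals, a share of 0.779. Zfp36 read 11.17 in LAr animal K109 and 11.43 to 11.53 in the others, a share of 0.717. Both values lie above all Ent animals.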

How the results depend on the processing

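Across 25 settings the 29 DE genes kept their sign in all 717 combinations of gene and setting, and Fos, Zfp36, the Ensembl row IER2, and Ppp1r15a stayed DE in every one. With any single LAr or Ent animal left out, 17 stayed DE and all 29 kept q under 0.05. The count of DE genes ran from 19 (without K167) to 31 (without K109), that of higher genes from 18 to 30, and that of lower genes from 1 to 2 (2 without K5). Without a term for experiment there were 14 DE genes, 14 higher and 0 lower, and in experiment 2 alone 13, 13 higher and 0 lower. LAr and Ent fitted alone gave 4 (4 higher, 0 lower) with a term for experiment and 8 (7 higher) without it. Genes with a mean of at least 8 gave 16 (15 higher). Of the 29 DE genes, 8 have a lower mean and were left out there. Thresholds of 0.01 and 0.05 gave 55 (47 higher, 8 lower) and 98 (65 higher, 33 lower). Lower genes numbered 2 with all 31 animals, 2 with K113 added, and 4 with animal weights (42 DE genes). The causes were not tested. The near-threshold calls Dusp1, Kti12, Rpusd2, MIR22HG_containing, G858, Ddit3, and Nr4a1 were DE in 6 to 12 settings and at q under 0.05 in at least 21.

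Of the 48 named genes for which the settings were run, Vcam1 and Havcr1 changed sign, and neither was called in any setting. Vcam1 was 0.16 in the fit reported, -0.025 without a term for experiment and in LAr and Ent alone without it, -0.114 in experiment 2, -0.093 in LAr and Ent alone with that term, and -0.254 with the inner medulla covariate, and -0.001 to 0.618 with an animal left out. Havcr1 was -0.096 with all 31 animals, -0.088 with K113 added, -0.016 without a term for experiment and in LAr and Ent alone without it, -0.241 with animal weights, -0.353 in experiment 2, -0.324 in LAr and Ent alone with that term, -0.003 without K130, and -0.045 with the inner medulla covariate, and -0.297 to 0.575 with an animal left out. Depth is unknown, and 5 animals a group limit what can be called. No paired analysis was possible because LAr and Ent animals share no replicate numbers.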

Other observations

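Large differences without a call ran mostly the other way. Of 56 genes with a fitted difference of at least 1 in size, 27 did not pass q under 0.05, and 23 of these had a fitted difference below 0. They include genes known from the inner medulla and papilla. Slc14a2, the urea transporter UT-A, averaged 6.52 ± 0.25 (SD, n = 5) in LAr and 8.73 ± 1.35 in Ent (difference -2.74, adjusted p = 0.339). Slc14a1, the urea transporter UT-B, averaged 6.00 ± 0.25 and 7.23 ± 0.86 (difference -1.65, adjusted p = 0.41). Within experiment 2 the differences were -1.78 for Slc14a2 and -0.78 for Slc14a1. The SDs show that the spread lay in the Ent animals. Dcn, the matrix proteoglycan decorin, averaged 9.03 ± 0.93 in LAr and 10.09 ± 0.36 in Ent (difference -1.20, adjusted p = 0.352), with the spread in LAr. Groups did not overlap in 7 of the 27 (Fabp4, Tgfbi, Ccl16, Lrrc66, Lamb3, Thbd, and Akap12), against 3.13% of all genes. The 27 were picked for the size of their difference, which favors a lack of overlap, and none of the 7 passed q under 0.05. Thbd, the endothelial anticoagulant thrombomodulin, averaged 10.61 ± 0.19 in LAr and 11.31 ± 0.37 in Ent (difference -1.08, adjusted p = 0.326, and -0.68 within experiment 2). Over all genes, the median SD between animals was 0.095 in LAr and 0.175 in Ent, and it was larger in LAr in 20% of genes. All LAr animals came from experiment 2 and Ent from both, so state and experiment cannot be told apart in this comparison of spread.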
